A study of Drosophila melanogaster with 10 samples.

Results

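The regions described are the places in the Drosophila genome where Mod(mdg4)2.2 and Su(Hw) were found together by chromatin immunoprecipitation and sequencing (ChIP-seq) and where no CP190, Rump or Shep peak was called. They were chosen by merging the peaks of the 5 factors that overlapped by at least 1 bp and keeping merged regions with Mod(mdg4)2.2 and Su(Hw) peaks only. This gave 486 of 5224 merged regions (9.3%), a share that the rule itself fixed. The cells were Kc167, an established line from Drosophila melanogaster embryos, grown at 25 °C. Mod(mdg4)2.2 was precipitated with 2 antibodies, raised in guinea pig and in rabbit, whose libraries were combined into 1 list by the authors, and Su(Hw) and CP190 with 1 rabbit antibody each. Rump and Shep had 2 antibodies each, also combined. Per the labels, CP190 was precipitated from another chromatin preparation than the other 4 factors, so that the absence of a CP190 peak and a difference between preparations cannot be told apart.

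Su(Hw) (suppressor of Hairy-wing) is a zinc-finger protein that binds DNA in a sequence-specific way and has sites in the gypsy retrotransposon. Mod(mdg4)2.2 is a BTB-domain protein that binds Su(Hw). CP190 (Centrosomal protein 190) is a zinc-finger protein with a BTB domain that several insulator DNA-binding proteins recruit, and together the 3 form the gypsy insulator, which can block an enhancer from acting on a promoter across it. Rump (Rumpelstiltskin) and Shep (Alan shepard) are RNA-binding proteins. Genes and DNA sequence at the regions were not analysed here, and positions are dm3 coordinates counted from 1.

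The 486 regions held 511 of the 2678 Mod(mdg4)2.2 peaks (19.1%) and 486 of the 2369 Su(Hw) peaks (20.5%). Each held 1 Su(Hw) peak, and 462 held 1 Mod(mdg4)2.2 peak. Among all 1602 regions with Mod(mdg4)2.2 and Su(Hw), 30.3% held neither CP190 nor Rump nor Shep. Among the 1251 of these without Rump or Shep, 486 lacked CP190 (38.8%), and the other 765 held it. The 765 regions are the closest comparison and are called the regions with CP190 below. The CP190 peak of these overlapped the Su(Hw) peak in all 765, and overlapped a Mod(mdg4)2.2 peak directly in 758. The overlap of CP190 with the Su(Hw) or Mod(mdg4)2.2 peak had a median of 2000 bp, and it was under 500 bp in 25 regions (3.27%).

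Each factor has a single list without replicates, and the peaks of a list are not replicates of a condition. Differences are therefore given without a p-value. Medians carry a 95% interval from order statistics and shares an exact Clopper-Pearson 95% interval, both of which cover counting error only. The number of reads behind each list is unknown here.

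The score of Mod(mdg4)2.2 was lower where CP190 was missing. This score is the authors' own signal value for a peak, whose scaling is not given, and it was used without transformation. A region was given the score of its highest Mod(mdg4)2.2 peak. The regions without CP190 had a median score of 91.5 (interval 86.5 to 102.7, n = 486), with quartiles of 64.3 and 148. The median over all peaks of the Mod(mdg4)2.2 list was 99.0, which lies inside that interval. The regions with CP190 had a median of 159 (150.1 to 164, n = 765), with quartiles of 101 and 218. Both ranges were wide and overlapped, from 45.7 to 360.4 without CP190 and from 46.3 to 407 with it, so the score does not separate the groups. Regions with more Mod(mdg4)2.2 peaks have more chances of a high score, and where only regions with 1 peak of each factor were kept the medians were 90.9 (85.0 to 101.8, n = 462) and 153 (145 to 161, n = 637). Regions with Rump or Shep had been left out of both groups, and with them included the medians were 93.7 (88.3 to 106, n = 546) and 186 (176 to 198, n = 1056). The size of the difference depended on where the list was cut. Such a cut is made on the score itself, so it raises both medians by design. With the top 50% of Mod(mdg4)2.2 peaks 229 regions remained, and the medians were 151 (146 to 167) without and 181 (174 to 189) with CP190.

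The regions without CP190 lay between other combinations in Mod(mdg4)2.2 score. Mod(mdg4)2.2 peaks without any other factor had a median of 57.6 (55.4 to 59.3, n = 298) and those with CP190 but no Su(Hw) a median of 68.7 (64.5 to 73.8, n = 292). At the other end, regions with Mod(mdg4)2.2, Su(Hw), CP190 and Rump had a median of 349 (341 to 361, n = 207). The intervals of these medians did not meet that of the regions without CP190. The q-value of the highest Mod(mdg4)2.2 peak was at the lowest value of the list, 0.000261, in 354 of the 486 regions (72.8%) and in 700 of the 765 with CP190 (91.5%). In the 486 regions this q-value was found at scores of 66.3 and above and not below. It is therefore not a measure apart from the score.

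**Figure D1:**
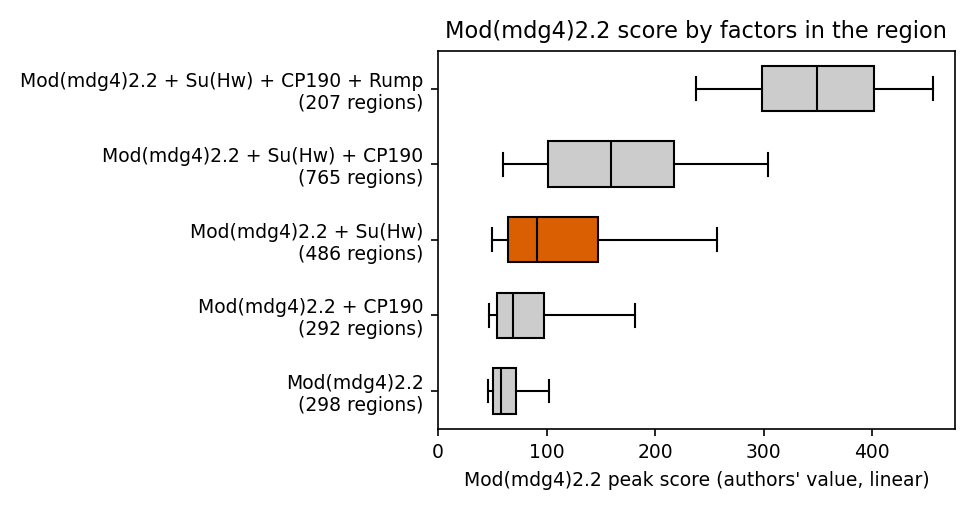
Mod(mdg4)2.2 peak score (authors' signal value, linear axis) by the factors present in a region. Lines are medians, boxes span the quartiles and whiskers the 5th to the 95th percentile of regions. The 486 regions without CP190 (orange) have a median of 91.5, between 159 with CP190 and 57.6 for Mod(mdg4)2.2 alone.

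CP190 was missing more often at lower Mod(mdg4)2.2 scores. The whole Mod(mdg4)2.2 list was divided into 10 equal parts (deciles) by score, and the 1251 regions were counted by the decile of their highest peak. In the highest decile 9 of 60 regions lacked CP190 (15.0%, interval 7.10 to 26.6), in the fifth 72 of 167 (43.1%, 35.5 to 51.0) and in the lowest 36 of 54 (66.7%, 52.5 to 78.9). The highest share was in decile 9, with 47 of 64 regions (73.4%, 60.9 to 83.7), and the shares rose at every step down to it. Intervals of neighbouring deciles overlapped throughout. Of the 486 regions, 257 (52.9%, 48.3 to 57.4) had scores in the lower 50% of the list, against 24.3% (21.3 to 27.5) of those with CP190. The interval of the 486 included 50%, the share of the whole list by definition, and that of the regions with CP190 lay below it.

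**Figure D2:**
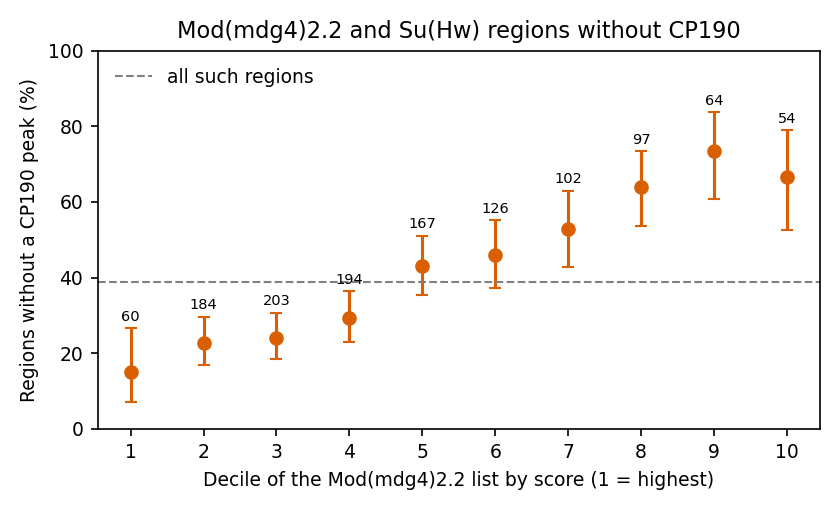
Share of regions with Mod(mdg4)2.2 and Su(Hw), and without Rump or Shep, that lack a CP190 peak, by decile of the Mod(mdg4)2.2 list. Points are shares, bars exact 95% intervals and the number above each bar the count of regions. The dashed line is the share over all 1251 regions, 38.8%, and points rise from 15.0% in the highest decile to 73.4% in decile 9.

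The same order of scores was seen on each of the 5 large arms. On X the median was 90.8 (80.2 to 111) without CP190 and 167 (154 to 183) with it. On 3L the medians were 86.0 (69.3 to 106) and 164 (150.1 to 173). The arms 2L and 3R had medians of 92.3 and 90.8 without CP190 against 151 and 145 with it. On 2R the medians were nearest to each other, at 112 (82.8 to 130.3) and 162 (145 to 192). The intervals of the 2 groups did not meet on any of these arms. In the upper 50% of scores the share without CP190 lay between 24.4% (3L) and 31.3% (2L), and in the lower 50% between 53.4% (2R) and 60.7% (X).

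**Figure D3:**
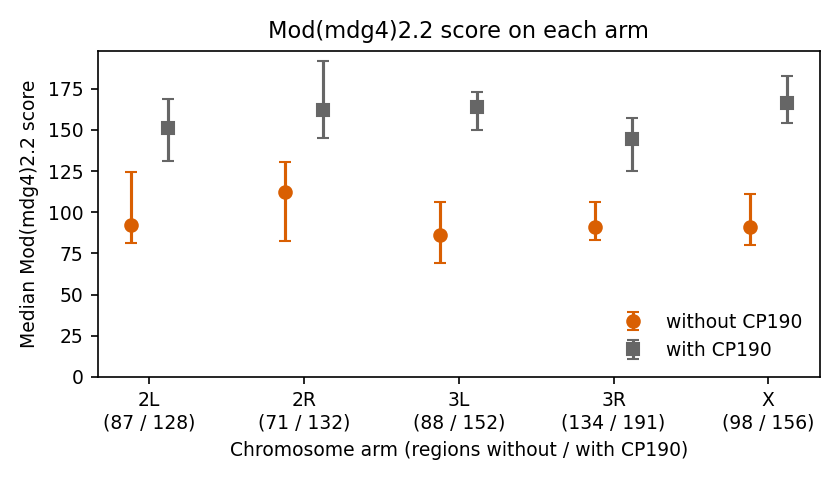
Median Mod(mdg4)2.2 score on each large chromosome arm, for regions with Mod(mdg4)2.2 and Su(Hw) without CP190 (circles) and with CP190 (squares). Bars are 95% order-statistic intervals and the numbers under each arm are counts of regions. The median is lower without CP190 on all 5 arms, from 86.0 to 112 against 145 to 167.

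The regions of highest score show what the top of the group looks like. The highest, chr3R:12444735-12447121, had a score of 360.4, which is rank 113 of the 2678 Mod(mdg4)2.2 peaks. Its nearest CP190 peak was 2277 bp away and its nearest Rump peak 7395 bp. The second, chr3R:18353807-18358847, had 339, and was also the widest of the 486 and the only one with 3 Mod(mdg4)2.2 peaks. It is described again under peak geometry. The third, chr3R:15463498-15465640, had 335, and a Shep peak lay 1013 bp from it. Next came chr3L:17399234-17401480 with 333 and chr2R:4942587-4944756 with 320, whose nearest CP190 peaks were 26230 and 4087 bp away. The other 5 of the top 10 had scores from 292 to 303. They were chr2L:18512504-18514833, chr3R:2213082-2215643, chr2R:8296225-8298520, chr3L:16310757-16312912 and chr3R:11893114-11895226. Between 2277 and 68202 bp separated the 10 regions from CP190, and 9 of them had Mod(mdg4)2.2 and Su(Hw) midpoints within 152 bp.

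At the lowest scores the regions were close to the limit of the Mod(mdg4)2.2 list, whose lowest peak had 45.7. The 3 lowest were chr2R:13490701-13493115, chr3L:5969148-5970548 and chrX:8807082-8809107, with scores of 45.7, 45.7 and 46.0 and q-values of 0.00616, 0.00617 and 0.00621. The midpoints of Mod(mdg4)2.2 and Su(Hw) were 396.5, 642 and 15 bp apart in these. A low score thus went with both central and eccentric positions of Mod(mdg4)2.2.

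Mod(mdg4)2.2 lay near the middle of the Su(Hw) peak. The Mod(mdg4)2.2 peaks, all 304 bp wide, were wholly inside the Su(Hw) peak in 506 of 511 cases, and the other 5 overlapped it by 117 to 296 bp. The midpoints were a median of 37.8 bp apart (33.5 to 42.5), with quartiles of 15 and 100.4 bp. They were within 152 bp of each other, which is the distance from the centre of a Mod(mdg4)2.2 peak to its edge, in 403 regions (82.9%, 79.3 to 86.2). Mod(mdg4)2.2 was to the right of the Su(Hw) midpoint in 252 regions and to the left in 232, and the midpoints coincided in 2.

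In the regions with CP190 the midpoints were further apart, at a median of 59.5 bp (51.0 to 69.0), and 72.4% were within 152 bp (69.1 to 75.6). The distance was smaller without CP190 in 9 of the 10 deciles of score, the exception being the highest, with 9 regions (84.0 against 67.0 bp). Over all scores the regions with CP190 also had more Su(Hw) peaks over 3000 bp and more Mod(mdg4)2.2 peaks, whose part in the distance was not tested by itself. Where each factor had 1 peak and Su(Hw) was 1900 to 2500 bp wide, the medians were 29.5 bp (24.5 to 33.5, n = 381) and 33.0 bp (28.5 to 38.5, n = 502), and their intervals overlapped. The score difference remained in these regions, at 101 (90.3 to 110) against 162 (154 to 170.2).

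**Figure D4:**
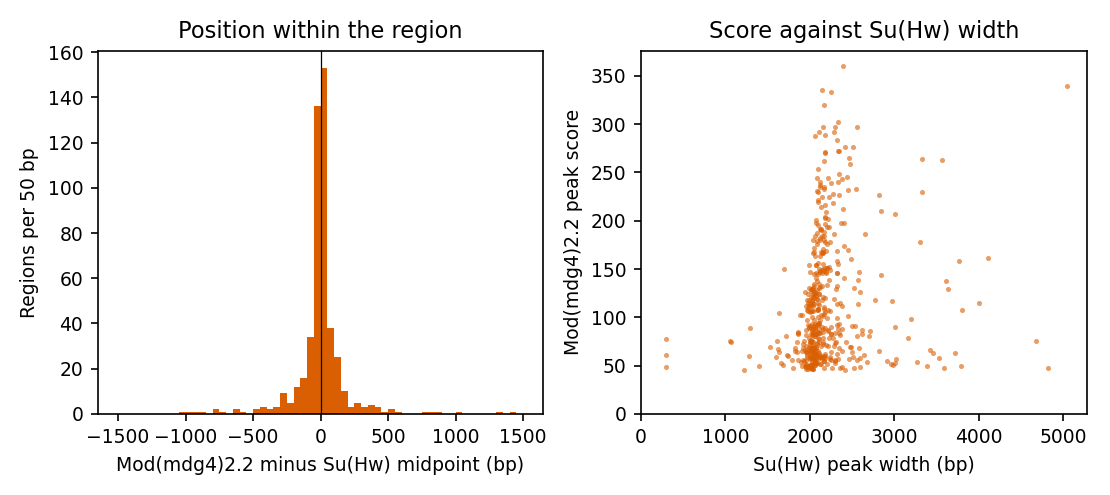
Geometry of the 486 regions with Mod(mdg4)2.2 and Su(Hw) and no CP190, Rump or Shep. The left panel counts regions by the position of the highest Mod(mdg4)2.2 peak relative to the Su(Hw) midpoint in bins of 50 bp, and the right panel plots score against Su(Hw) width with 1 point per region. Most regions sit at the centre, with 82.9% within 152 bp. The median width is 2110.5 bp over all regions. It is 2178 bp in the highest of 4 equal parts by score and 2063 bp in the lowest.

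Su(Hw) peak width, the only measure in that list, had a slightly lower median without CP190, but not within most deciles of Mod(mdg4)2.2 score. Without CP190 the median was 2110.5 bp (2095 to 2130), with quartiles of 2027 and 2280 bp, and with CP190 it was 2145 bp (2132 to 2162). Within deciles of score the median width was higher without CP190 in 8 of the 10. The medians were 2261 against 2193 bp in decile 2, but only 2165 against 2155.5 bp in decile 3. They were lower without CP190 in deciles 5 (2068 against 2113 bp) and 9 (2095 against 2165 bp). No intervals were computed for these medians. Su(Hw) peaks without any other factor had a median of 2005 bp (1997 to 2015, n = 615). Of these, 30 (4.88%) were under 1000 bp, against 3 of the 486 (0.617%) and 3 of the 765 (0.392%). Peaks over 3000 bp made up 5.56% (3.69 to 7.98) of the regions without CP190 and 12.3% (10.0 to 14.8) of those with it. When the 1251 regions were divided into 4 equal parts by Su(Hw) width, the share without CP190 was 43.3% (37.7 to 49.0) in the narrowest and 30.4% (25.3 to 35.8) in the widest. The rule asks whether any CP190 peak overlaps the region, and a wider Su(Hw) peak has more bases on which to meet one. How far this enters the differences in width was not tested. The median Mod(mdg4)2.2 score was lower without CP190 in each of the 4 parts, at 69.0, 105, 136 and 98.6 from narrow to wide against 95.6, 168, 216 and 162.

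Within the 486 regions, Mod(mdg4)2.2 score and Su(Hw) width went together weakly (Spearman's rho 0.29, Pearson's r 0.17, across regions that share 2 lists, given as a description). The 486 were also divided into 4 equal parts by score. In the highest, with scores of 149 and above, Su(Hw) peaks had a median width of 2178 bp (2165 to 2213), against 2063 bp (2038 to 2118) in the lowest, 64.3 and below. The rho was 0.35 in the regions with CP190. Score and midpoint distance had a rho of -0.10, with medians of 37.5 bp in the highest part and 56.0 bp in the lowest, whose intervals overlapped (28.0 to 43.5 and 36.0 to 77.5). Su(Hw) width and midpoint distance had a rho of 0.50. Since the peaks had to overlap, a wider Su(Hw) peak allows a greater distance, so this rho is in part set by the rule.

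The extremes of width illustrate the geometry. The widest, chr3R:18353807-18358847, had a Su(Hw) peak of 5041 bp with 3 Mod(mdg4)2.2 peaks, of scores 83.1, 112 and 339, spaced 1375 and 1550 bp apart. Its highest peak was 1407.5 bp from the Su(Hw) midpoint. The next 2, chr3R:4492544-4497366 and chr3R:15283334-15288006, had widths of 4823 and 4673 bp, scores of 47.4 and 75.0, and 2 and 1 Mod(mdg4)2.2 peaks. The narrowest 3 all had Su(Hw) peaks of 300 bp, the lowest width in the list, and scores of 48.3, 77.8 and 61.5. They were chr3R:23902177-23902484, chrX:10441392-10441877 and chrX:18934352-18934663. The midpoints were 6, 184 and 10 bp apart in these, in the same order.

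More than 1 Mod(mdg4)2.2 peak was found in 24 of the 486 regions (4.94%, 3.19 to 7.26), against 126 of the 765 with CP190 (16.5%, 13.9 to 19.3). The shares depended on how peaks were joined and filtered. They were 8.56% against 22.4% with peaks joined within 1000 bp, and 2.18% against 8.81% in the top 50% of Mod(mdg4)2.2 peaks. With peaks resized to 300 bp they were 1.79% (0.821 to 3.37) against 3.35% (2.09 to 5.08), and these intervals overlapped. A CP190 peak can itself widen a merged region and so bring in further Mod(mdg4)2.2 peaks. How far this enters the shares was not tested. In the 23 regions with 2 peaks these were spaced 199 to 1807 bp apart, with a median of 646 bp. The higher of the 2 scores was a median of 1.52 times the lower (range 1.03 to 5.25). Su(Hw) peaks were wider there, with a median of 2482 bp against 2100 bp in the 462 regions with 1 peak, and the highest score had a median of 118 against 90.9. As an example of unequal peaks, chr2L:15271193-15273604 held scores of 52.6 and 276 at a spacing of 529 bp, while chr3L:17539945-17543557 held 131 and 137 at 1529 bp. These 2 examples were chosen after their values were seen.

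CP190 peaks were mostly kilobases away from the regions that lacked one. The gap from the edge of the region to the nearest CP190 peak had a median of 13071 bp (11257 to 14983), with quartiles of 4634 and 26503 bp. CP190 lay within 1000 bp of 27 regions (5.56%, 3.69 to 7.98), within 5000 bp of 132 (27.2%, 23.3 to 31.3) and within 50000 bp of 440 (90.5%, 87.6 to 93.0). Around the regions with CP190, the nearest CP190 peak outside the region was a median of 11003 bp away (10230 to 12386), and within 5000 bp in 27.3%. The intervals of these medians overlapped. Su(Hw) peaks without other factors had a higher median gap of 15682 bp (14138 to 17842), but its interval overlapped that of the 486 regions. Their share within 5000 bp was 18.3% (15.3 to 21.6), and this interval did not meet that of the 486. Mod(mdg4)2.2 peaks without other factors had a median gap of 12800 bp (11051 to 14682). Among the 486 regions the gap hardly moved with score (rho -0.02).

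**Figure D5:**
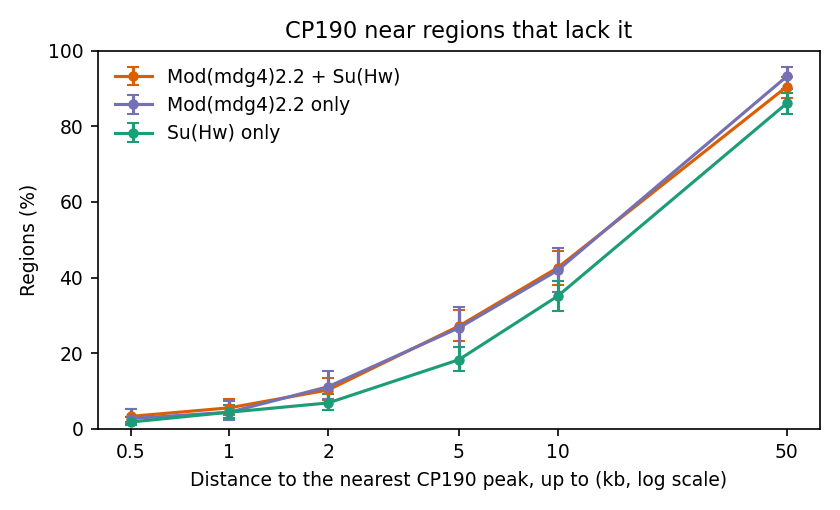
Share of regions without a CP190 peak that have one within a given distance of their edge (log axis, kb), for the 486 regions with Mod(mdg4)2.2 and Su(Hw) and for regions with either factor alone. Bars are exact 95% intervals. Within 5 kb lie 27.2% of the 486, 26.7% of Mod(mdg4)2.2 alone and 18.3% of Su(Hw) alone.

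At the limit of the rule, chr2L:5338012-5340145 and chr3R:4529846-4532008 each lay 24 bp from a CP190 peak, with Mod(mdg4)2.2 scores of 167 and 54.3, and chr3R:8477573-8479751 lay 109 bp from one, with a score of 272. Just outside it, the regions with the smallest CP190 overlap were chrX:14801402-14805592 with 183 bp, chr2R:8221654-8225088 with 235 bp and chr2L:1624820-1628611 with 294 bp, and scores of 212, 66.5 and 102. The regions named on each side had both low and high scores, and are too few to describe the regions near the limit.

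The Rump and Shep lists are shorter than that of CP190, with 338 and 1443 peaks against 2742, and a shorter list leaves larger gaps. The median gap was 130982 bp (106737 to 160172) to Rump and 40790 bp (37652 to 45400) to Shep, against 120935 and 36193 bp for the regions with CP190, with overlapping intervals. The nearest region of any kind was a median of 7018 bp away (5663 to 8131), and it held CP190 in 271 of 486 cases (55.8%, 51.2 to 60.2), against 52.1% of all 5224 regions. It was another region of Mod(mdg4)2.2 and Su(Hw) alone in 13.8% (10.8 to 17.2) and one of these 2 with CP190 in 21.8% (18.2 to 25.8). For the regions with CP190 the same shares were 13.5% (11.1 to 16.1) and 22.2% (19.3 to 25.3). Of all 5224 regions, 9.30% and 14.6% were of these kinds, below the intervals of both groups.

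The regions were spread over all large arms, with 134 on 3R, 98 on X, 88 on 3L, 87 on 2L and 71 on 2R. The share on X was 20.2% (16.7 to 24.0), against 20.4% (17.6 to 23.4) of regions with CP190 and 20.0% of the Su(Hw) list. On 2R it was 14.6% (11.6 to 18.1) against 17.3% (14.6 to 20.1). Only 8 regions (1.65%) were elsewhere, with 3 on 3LHet, 2 on 3RHet, 2 on chromosome 4 and 1 on the unplaced sequence U. The 3 on 3LHet had scores of 70.8, 145 and 119, the 2 on 3RHet 82.6 and 52.6 and that on U 59.0. The highest of the 8 was chr4:961131-963319 with 145. When each large arm was divided into 5 equal parts of the span covered by peaks, the share without CP190 ran from 33.0% (26.3 to 40.2) in the part next to the centromere to 44.5% (38.4 to 50.7) in the middle and 36.4% (30.4 to 42.7) at the far end, with overlapping intervals.

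Successive regions on an arm were a median of 143875 bp apart (123001 to 172846), and 21 of the 473 gaps were of 5000 bp or less. Of the windows of 100 kb that held any, 287 held 1 and 72 held 2. The most were 5, in chrX:8800001-8900000, where 2 of the 765 regions with Mod(mdg4)2.2, Su(Hw) and CP190 also lay among 9 regions in all. A pair of windows on 3L held 4 each, chr3L:4400001-4500000 and chr3L:17800001-17900000, and the latter held none of the regions with Mod(mdg4)2.2, Su(Hw) and CP190 among its 5 regions. In the window on X, the scores were 91.3, 46.0, 108, 84.4 and 114 from left to right, and the first pair of regions were separated by 12 bp. In chr3L:17800001-17900000 they were 113, 69.3, 71.2 and 240, with gaps to CP190 that grew from 14264 to 55304 bp from left to right. Of these 13 regions in the 3 windows, 1 was in decile 2 of score and 1 in decile 10.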

How the data were processed

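Peaks had been called on ChIP-seq libraries of Kc167 cells by the authors, who deposited 1 list per factor on genome build dm3. Per the submitters' processing notes, the tools were Bowtie 0.12.8, Picard 1.77, Trimmomatic 0.20, bedtools 2.17.0 and cutadapt 1.1. How peaks were called, at which threshold, how 2 antibodies were combined and how many reads each library had is not given in the sources used here. In narrowPeak layout, the deposited Mod(mdg4)2.2, Rump and Shep lists give a signal value in column 7 (scaling not given) and −log10 of a q-value in column 9. The deposited Su(Hw) and CP190 lists hold start and end only.

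Peaks overlapping by 1 bp or more were merged, and regions were sorted by the factors present. Regions named are the 10 highest and 3 lowest in Mod(mdg4)2.2 score, the 3 widest and 3 narrowest in Su(Hw), those with 3 or more Mod(mdg4)2.2 peaks, the 3 nearest to CP190 with the 3 of smallest CP190 overlap, and the 3 windows of 100 kb with most regions. The rule and the regions were chosen with earlier results of these data known. Merging and intervals were tested on simulated data. Alternatives were other overlap rules, widths, thresholds, units of counting and sets of chromosomes. No gene annotation or genome of dm3 was used here. Python 3.11.15, NumPy 2.4.6, pandas 2.3.3, SciPy 1.17.1 and matplotlib 3.10.9 were used.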

Additional observations from a re-analysis of the deposited data

How the results depend on the processing

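No paired analysis was possible because each factor has 1 list, and no library could be left out. Over 14 alternatives, 13 of them planned, 128 of 148 recomputed values stayed within the interval of the reported value or, for the count of regions, within 1.5 times it. With the top 50% of Mod(mdg4)2.2 peaks the count was 229, the median scores were 151 without and 181 with CP190, the median Su(Hw) width was 2153 bp and the share with 2 or more Mod(mdg4)2.2 peaks was 2.18% without and 8.81% with CP190, all of which follow in part from the removal of low peaks. That share was 8.56% without and 22.4% with CP190 for peaks joined within 1000 bp, 1.79% and 3.35% for peaks resized to 300 bp, and 23.4% with CP190 for CP190 peaks widened by 1000 bp. Counting single Mod(mdg4)2.2 peaks gave a median score of 149 with CP190, a Su(Hw) width of 2143 bp and midpoint distances of 45.0 bp without and 82.5 bp with CP190. The latter distance was 42.75 bp with resized peaks and 44.0 bp with 1 peak of each factor, a setting chosen after seeing the data. Distances and shares of 2 or more peaks in the regions with CP190 were also put through the alternatives after seeing the data. The share on X was 24.6% without chromosome 2L, 24.6% without 3L and 27.8% without 3R, since fewer regions remained in the total. The share in the lower 50% of scores cannot be given for the top 50%, nor that on X without X. The motif search planned for a dm3 genome was not run. Without read counts, a CP190 peak under the authors' threshold cannot be told from none.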

Other observations

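A further 60 regions held Mod(mdg4)2.2 and Su(Hw) without CP190 but with Rump or Shep. In the 21 with Rump and no Shep the median Mod(mdg4)2.2 score was 298 (interval 274 to 336) and 13 were in the highest decile, while none was in the lower 50% of the list. In the 35 with Shep and no Rump the median was 82.7 (62.0 to 104), and 21 were in the lower 50%. The midpoints of Mod(mdg4)2.2 and Su(Hw) were a median of 32.0 bp apart (15.0 to 93.5) with Rump and 175 bp (97.0 to 274) with Shep. Regions with CP190 and Shep, without Rump, had a median score of 161 (120.3 to 202.4, n = 59) and a midpoint distance of 142 bp (93.0 to 188.5). The presence of Rump or Shep was used to set these groups, so the values are a description.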
